A study of Mus musculus with 16 samples.

Results

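The retinoid binding and metabolism genes described here were Rbp7, Rbp4, Aldh1a1, Aldh1a2, Crabp1, Rara, Rarb, Rarg and Stra6, and they were found as every probe set that the array annotation gives to 1 of these 9 symbols and to no other gene. Of the 9 genes, 8 were measured, by 9 of the 45037 probe sets of the array, since Rarg had 2 probe sets. No probe set carried the symbol Rarb in the annotation used here, and Rarb expression was not analysed here. The genes were chosen by the log2 signal of Rbp7 in heart, which had been seen to be higher in knockout samples, so the heart values of KO against WT below are a description without a test.

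The mice lacked, or carried, nuclear myosin 1 (NM1), a form of the motor protein myosin 1c that is made from the gene Myo1c and is found in the nucleus. Each of the 16 Affymetrix arrays held the RNA of 1 sample. There were 3 NM1 knockout (KO) and 3 wild-type (WT) samples of lungs, 3 KO and 3 WT samples of heart, and 2 KO and 2 WT samples of fibroblasts derived from skin. Lungs and heart came from the same 6 animals by their numbers, WT 1592, 1593 and 1624 and KO 1586, 1602 and 1603, whereas the fibroblasts were numbered WT 1571 and 1623 and KO 1550 and 1584. For the strain, sex and age of the mice, the deleted part of the gene, any treatment and the passage of the fibroblasts, nothing is stated in the labels used here. No group was described as treated, and each number was read as 1 animal.

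Vitamin A travels in blood as retinol bound to a carrier protein, enters cells, and is stored as an ester or oxidised first to retinal and then to retinoic acid. Retinoic acid is carried inside the cell by small binding proteins and switches genes through nuclear receptors that sit on DNA together with a partner receptor. In lungs this pathway is known for its part in forming and maintaining alveoli, in heart for its part in development and in the response to injury, and in skin for epithelial and fibroblast growth.

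RefSeq (assembly GRCm38.p6) gave 18 promoter windows for the 9 genes, each running from 250 bases before an annotated transcription start site to 50 bases after it. They were searched on both strands for 2 copies of a receptor half-site in the same orientation, with 1, 2 or 5 bases between them, where the half-site was the consensus AGGTCA, or the variant spelled AGTTCA, or that spelled GGTTCA, or lastly GGGTCA, and half-sites of the 4 spellings could be mixed. Only 1 of the 18 windows held such a pair, at Rarb, whose own receptor site is a textbook example, with a spacing of 5 bases and lying from -53 to -37 relative to the start site. Among all 32851 promoter windows of the table, 0.0974% held a pair with this spacing, 0.222% a pair with a spacing of 1 base and 0.268% a pair with a spacing of 2 bases. The sequence TATAAA, searched on the gene strand just before the start site, was found in 1 window, at Rbp4, from -28 to -23, and in 2.18% of all windows. The windows of 3 genes are shown because expression below turns on Rbp7 and Rbp4 and because Rarb holds the only receptor pair. All 3 lie on the minus strand and are printed 5′ to 3′, with capitals for the receptor half-sites at Rarb and for the TATA box at Rbp4. They are Rbp7 at chr4:149454919-149455218, Rbp4 at chr19:38124762-38125061, which is 1 of its windows, and Rarb at chr14:16575427-16575726.
Rbp7: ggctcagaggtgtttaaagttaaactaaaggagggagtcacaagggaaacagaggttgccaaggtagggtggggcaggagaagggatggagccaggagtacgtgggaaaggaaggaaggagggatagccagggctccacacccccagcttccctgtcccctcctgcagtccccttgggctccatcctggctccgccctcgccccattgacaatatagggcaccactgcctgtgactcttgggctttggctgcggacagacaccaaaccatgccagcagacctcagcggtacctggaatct
Rbp4: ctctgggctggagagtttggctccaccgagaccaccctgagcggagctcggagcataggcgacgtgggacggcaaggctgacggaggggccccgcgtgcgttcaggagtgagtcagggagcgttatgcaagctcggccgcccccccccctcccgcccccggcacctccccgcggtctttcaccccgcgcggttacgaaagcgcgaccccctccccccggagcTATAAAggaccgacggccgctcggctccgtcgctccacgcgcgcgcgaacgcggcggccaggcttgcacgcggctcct
Rarb: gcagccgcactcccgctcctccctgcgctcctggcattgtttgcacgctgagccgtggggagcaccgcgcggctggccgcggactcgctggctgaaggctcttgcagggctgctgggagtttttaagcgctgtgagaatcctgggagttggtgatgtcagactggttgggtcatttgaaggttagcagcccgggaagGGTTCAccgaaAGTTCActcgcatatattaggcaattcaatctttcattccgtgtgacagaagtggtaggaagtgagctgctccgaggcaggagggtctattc
No capitals appear in the Rbp7 window, which says only that these letters are not within it.

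Signals are given on the log2 scale of the deposited values, on which a difference of 1 is a doubling, and levels are compared between samples of 1 probe set and not between genes. A probe set counted as above the filter in a tissue when its mean over that tissue exceeded 3.79, which is the median signal of the series. Of the 9 probe sets, 5 were above it in lungs, 4 in heart and 6 in fibroblasts, and that of Stra6 was below it in every tissue. Tests are from limma, with Benjamini-Hochberg adjustment over all probe sets kept in the comparison, and a difference was called at an adjusted p under 0.05. Where 1 side of a comparison lies below the filter, the difference is that of the measured signals, and the difference in RNA may be larger. Nothing in the labels names separate cultures or litters, so the p-values measure the spread between these samples.

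Marker genes were set beside the tissue labels. The mean of 4 alveolar type II markers was 10.78 to 11.12 in lungs and at most 4.74 elsewhere, that of 4 ventricular muscle markers was 10.96 to 11.30 in heart and at most 5.91 elsewhere, and the mean of the fibroblast list was 8.37 to 9.36 in the fibroblast cultures and 7.17 to 8.41 in the tissues, which overlaps, so this list does not set the cultures apart. The mean of the 4 Myo1c probe sets, which do not separate NM1 from the other forms, was lower in each KO than in each WT sample of the same tissue, at 6.31 to 7.09 against 7.55 to 8.35 in lungs, 5.92 to 6.00 against 6.60 to 6.83 in heart and 6.24 to 6.26 against 7.52 to 7.81 in fibroblasts. The array of KO heart 1602 stood apart from the other hearts, with an upper quartile of 5.63 against 6.17 to 6.31. Lungs KO 1586, KO 1603 and WT 1592 had high adipocyte transcripts, with a mean of 7.56, 7.14 and 5.89 over the 7 of 10 adipocyte markers measured, against 3.36 to 3.70 in the other 3 lungs. The same 3 lungs were also highest in the mean of the atrial muscle markers, at 7.16, 7.84 and 7.62 against 4.96 to 5.98.

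**Figure D1:**
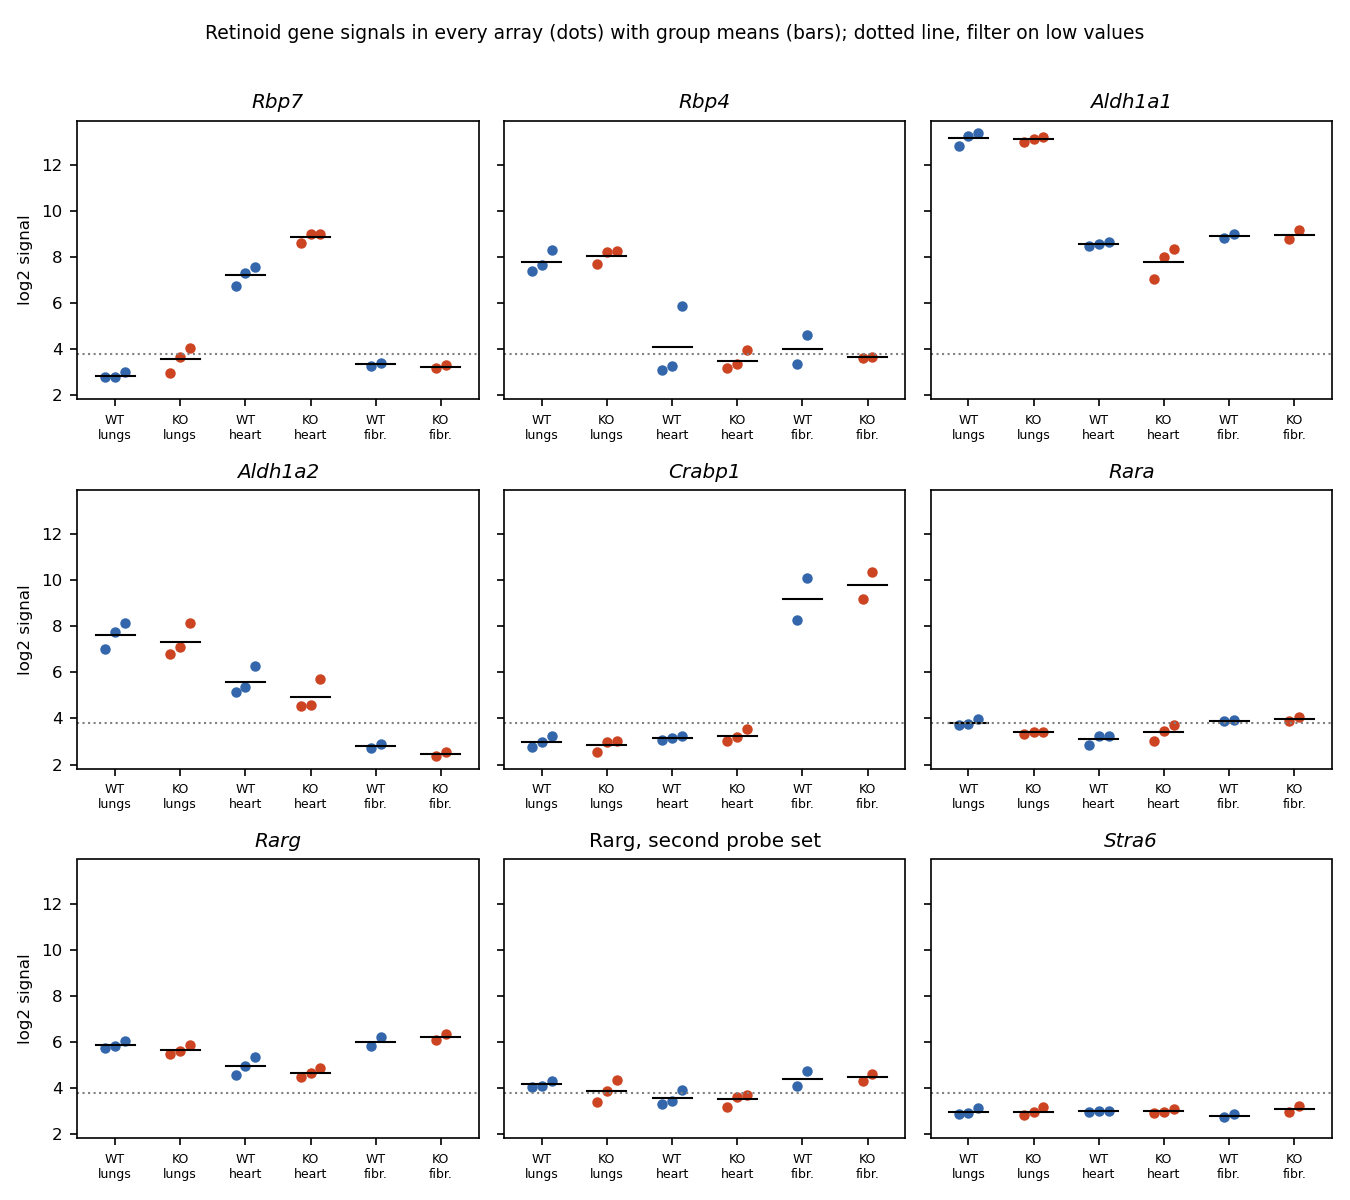
Log2 signal of each retinoid probe set in every array (dots: blue WT, red KO) with the group mean (black bar), by tissue, 3 samples per group in lungs and heart and 2 in fibroblasts; the dotted line marks the filter at 3.79. Rbp7 stands high in heart, Rbp4, Aldh1a1 and Aldh1a2 in lungs, and Crabp1 in fibroblasts.

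In WT mice Rbp4, Aldh1a1 and Aldh1a2 had their highest signals in lungs, Crabp1 was above the filter in fibroblasts alone, and Rbp7 in heart alone. Aldh1a1 and 1 of the 2 Rarg probe sets were above the filter in all 3 tissues, and the other Rarg probe set in lungs and fibroblasts. For the members tested, transcript signals in the absence of a knockout were set against each other in 3 comparisons among the WT groups, which share samples with one another. Of the 5 member probe sets tested between lungs and heart, which leave out Rbp7, 4 were higher in lungs and none lower, where 60.2% of all probe sets tested were called, 34.8% as higher and 25.4% as lower. Between lungs and fibroblasts 4 of 7 were called, 3 higher and 1 lower in lungs, against 60.1% of all probe sets, 28.4% higher and 31.7% lower. Between heart and fibroblasts 5 of 7 were called, 1 higher and 4 lower in heart, against 63.8% of all probe sets, 27.7% higher and 36.2% lower. These samples are bulk tissue, in which fewer cells of a type and less RNA per cell cannot be told apart.

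**Figure D2:**
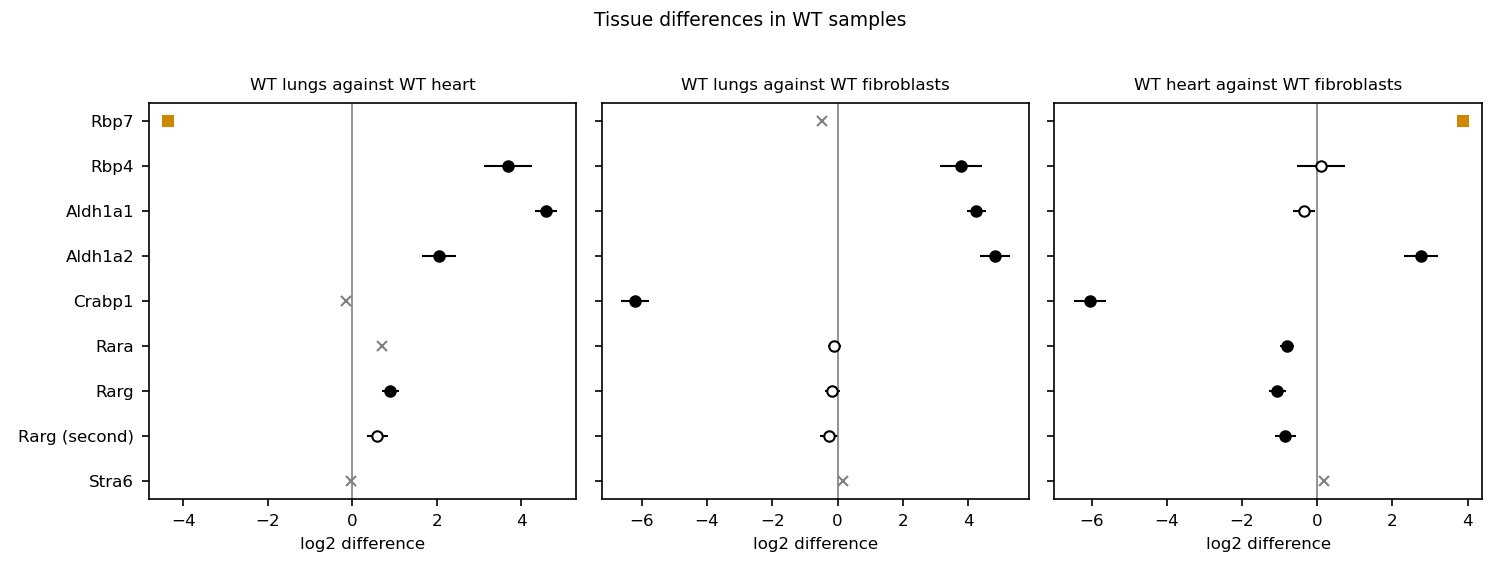
Log2 differences between WT tissues for the retinoid probe sets, with bars of 1 standard error; filled circles passed an adjusted p under 0.05, open circles did not, crosses were below the filter and untested, and orange squares mark Rbp7, which is described without a test. Aldh1a1 and Rbp4 lie to the right in both comparisons of lungs, and Crabp1 lies far to the left in both comparisons with fibroblasts.

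Among the carriers, Rbp4 encodes the protein that carries retinol in blood, made by liver and fat and also found in lungs. Its log2 signal in lungs was 8.28, 7.38 and 7.63 in WT 1592, 1593 and 1624 and 8.21, 7.69 and 8.24 in KO 1586, 1602 and 1603. In heart it was 3.28, 5.85 and 3.09 in the WT samples of the same mice and 3.20, 3.97 and 3.33 in the KO samples. Every lung lay above every heart, and WT heart 1593 was far above the other 5 hearts. In fibroblasts the signal was 4.60 and 3.36 in WT 1571 and 1623 and 3.67 and 3.60 in KO 1550 and 1584. WT lungs exceeded WT heart by 3.69 (SE 0.57, limma adjusted p = 7.79e-05), a 12.9-fold difference, and WT fibroblasts by 3.78 (SE 0.64, limma adjusted p = 0.00018). Heart and fibroblasts were not separated, with a difference of 0.09 (SE 0.64, limma adjusted p = 0.907), and this difference was -0.79 without WT heart 1593.

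The 3 lungs that were highest in Rbp4 were the 3 with high adipocyte transcripts. Among the hearts, WT 1593 was highest in Rbp4 and in the adipocyte mean, at 5.48 against 4.46 to 4.64 in the other 5 hearts. Adipoq, the fat hormone adiponectin, was 7.57 in that heart and 2.70 to 4.72 in the others. Ucp1, Retn and Lipe were also highest there, by less. Cidea, Lep and Pck1 were not: they were 9.12, 3.05 and 2.91 in WT 1593. Cidea was 9.13 and Pck1 3.50 in KO 1602, and Lep was 3.08 in KO 1603. The higher adipocyte mean of that heart thus rests largely on Adipoq. In lungs, adipocyte and atrial muscle transcripts were high in the same 3 samples and cannot be told apart. The part of fat or of other tissue in the Rbp4 values was not tested. Without WT 1592, the 1 such lung among the WT samples, the difference between WT lungs and WT heart was 3.43 (limma adjusted p = 0.000577).

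**Figure D3:**
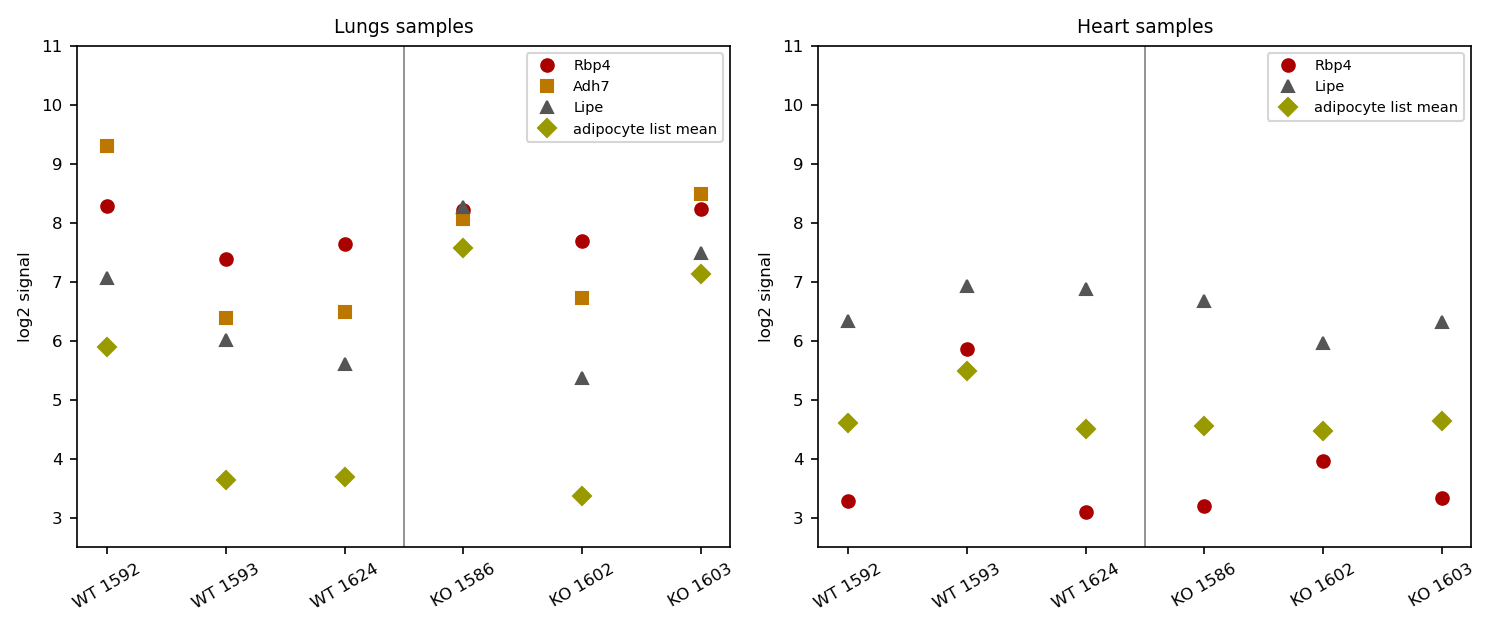
Log2 signal of Rbp4, Lipe, Adh7 (lungs panel) and the mean of the 7 measured adipocyte markers in each lungs and heart sample, WT left and KO right of the grey line; Lipe is itself 1 of the markers. In lungs all 4 are higher in WT 1592, KO 1586 and KO 1603 than in the other 3 samples, and in heart Rbp4 and the adipocyte mean are highest in WT 1593.

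Rbp7 encodes a cellular retinol-binding protein, known from fat and from the endothelium of small vessels. Its log2 signal in heart was 6.74, 7.56 and 7.29 in WT 1592, 1593 and 1624. In lungs it was 2.98, 2.79 and 2.77 in the WT samples and 4.06, 2.98 and 3.66 in KO 1586, 1602 and 1603. In fibroblasts it was 3.27 and 3.38 in WT and 3.19 and 3.28 in KO. Every heart lay above every lungs and fibroblast sample, and of the 10 other samples only KO lungs 1586 lay above the filter value. The WT mean was 4.35 lower in lungs than in heart and 3.87 higher in heart than in fibroblasts, both given without a test.

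Crabp1, which binds retinoic acid in the cytoplasm, was seen in fibroblasts. Its log2 signal there was 8.28 and 10.11 in WT 1571 and 1623 and 9.20 and 10.35 in KO 1550 and 1584. It lay between 2.57 and 3.22 in the 6 lungs and between 3.04 and 3.55 in the 6 hearts. The fibroblast cultures were spread widely among themselves, yet the lowest stood far above any tissue sample. The SD was 1.30 in WT and 0.81 in KO fibroblasts, and 0.08 to 0.26 in the groups of lungs and heart. The SE pools these, so for the fibroblasts it is smaller than their own spread would give. In WT mice lungs were 6.21 lower than fibroblasts (SE 0.42, limma adjusted p = 3.02e-08) and heart was 6.05 lower (SE 0.42, limma adjusted p = 2.75e-08), both against signals below the filter in the tissues.

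Of the uptake genes, Stra6 encodes the membrane receptor that takes up retinol from its blood carrier. Its probe set gave 2.75 to 3.23 over all 16 arrays, below the filter in each tissue, and it was not tested. A signal this low sets no level, since no detection call goes with the values.

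The members Aldh1a1 and Aldh1a2 encode enzymes that make retinoic acid from retinal, and both had their highest signals in lungs. Aldh1a1, which encodes a retinal dehydrogenase, had a log2 signal of 13.37, 12.81 and 13.26 in WT lungs 1592, 1593 and 1624 and of 12.97, 13.11 and 13.20 in KO lungs 1586, 1602 and 1603. In fibroblasts it was 8.83 and 8.98 in WT and 8.79 and 9.14 in KO. In WT hearts it was 8.57, 8.66 and 8.46, close to the fibroblasts and far below every lung. The WT difference was 4.58 between lungs and heart (SE 0.26, limma adjusted p = 3.77e-09), a 24.0-fold difference, and 4.24 between lungs and fibroblasts (SE 0.29, limma adjusted p = 3.35e-08). Between heart and fibroblasts it was -0.34 (SE 0.29, limma adjusted p = 0.317), and this passed the threshold in a model of the compared groups alone, at an adjusted p of 0.0483 from limma.

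Aldh1a2 encodes the retinal dehydrogenase known as the main source of retinoic acid in the embryo, and it is active in mesothelium and epicardium. Its log2 signal was 8.16, 7.74 and 7.03 in WT lungs 1592, 1593 and 1624 and 6.80, 8.13 and 7.09 in KO lungs 1586, 1602 and 1603. It was 6.26, 5.14 and 5.38 in the WT hearts and between 2.37 and 2.91 in the 4 fibroblast samples. Lungs, heart and fibroblasts did not overlap, in that order from the highest. In WT mice lungs exceeded heart by 2.05 (SE 0.41, limma adjusted p = 0.000632) and heart exceeded fibroblasts by 2.77 (SE 0.45, limma adjusted p = 0.000113). The lungs were also high in the 6 mesothelium markers, with a mean of 7.79 to 8.85 against 3.91 to 7.37 in heart and 3.39 to 3.72 in fibroblasts. Among the lungs, WT 1592 and KO 1602 were highest in both that mean and Aldh1a2, and the part of mesothelium in the Aldh1a2 values was not tested.

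Of the retinoic acid receptors, Rarg was lower in WT heart than in WT lungs and fibroblasts. Rara was lower in WT heart than in WT fibroblasts, from signals that were low in all 3 tissues. Rarg, whose receptor is prominent in skin, had a log2 signal of 5.74, 6.03 and 5.81 in WT lungs 1592, 1593 and 1624, of 4.56, 4.98 and 5.34 in the WT hearts and of 5.81 and 6.23 in WT fibroblasts. The WT hearts lay below every WT lungs and fibroblast sample, which overlapped each other. Heart was lower than lungs by 0.90 (SE 0.20, limma adjusted p = 0.00126) and than fibroblasts by 1.06 (SE 0.22, limma adjusted p = 0.000772), while lungs and fibroblasts were not separated, at -0.16 (SE 0.22, limma adjusted p = 0.55).

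The other Rarg probe set gave the same order of WT means, at 4.15 in lungs, 3.56 in heart and 4.41 in fibroblasts. Its difference between lungs and heart was 0.60 (SE 0.25) and missed the threshold at an adjusted p of 0.0514 from limma, and with the mouse as a block in the model it passed, at an adjusted p of 0.0426. Its difference between heart and fibroblasts was -0.85 (limma adjusted p = 0.0159). That call was lost without WT heart 1592 or without WT fibroblasts 1623, at adjusted p of 0.0555 and 0.205 from limma.

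Rara, the receptor found in most tissues, was above the filter in fibroblasts alone, at 3.93 and 3.88 in WT and 3.91 and 4.08 in KO. In WT heart it was 2.85, 3.24 and 3.23, below the fibroblasts by 0.80 (SE 0.19, limma adjusted p = 0.00189). In WT lungs it was 3.74, 3.97 and 3.73, not separated from fibroblasts at -0.09 (SE 0.19, limma adjusted p = 0.68).

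The comparison of KO with WT asked whether the loss of NM1 goes with a change in these genes, and in lungs and fibroblasts no member passed the test. In lungs 0 of 5 member probe sets were called by limma, none had an unadjusted p under 0.05, and 0.0301% of all probe sets tested were called. The KO minus WT differences in lungs were 0.28 for Rbp4 (SE 0.57), -0.052 for Aldh1a1 (SE 0.26), -0.30 for Aldh1a2 (SE 0.41), -0.21 for Rarg (SE 0.20) and -0.28 for the other Rarg probe set (SE 0.25). The KO and WT lungs overlapped for all 5, and a missed threshold does not show that the genotypes were alike.

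Rara was below the filter in lungs and was not tested, but its KO values of 3.43, 3.43 and 3.33 in 1586, 1602 and 1603 all lay below the WT values. Among the probe sets that passed the filter in lungs, 6.46% had all KO samples below all WT samples. Rbp7 in lungs was also under the filter as a mean, at 3.57 ± 0.55 (SD, n = 3) in KO and 2.85 ± 0.12 (SD, n = 3) in WT. The groups overlapped at KO 1602 and WT 1592. The highest values, in KO 1586 and KO 1603, came from lungs with high adipocyte and atrial muscle transcripts, whose part was not tested.

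In fibroblasts 0 of 6 member probe sets were called by limma, none had an unadjusted p under 0.05, and 0.0549% of all probe sets tested were called. Crabp1 had the largest difference of the 6, 0.58 (SE 0.46), and Rbp4 a difference of -0.34 (SE 0.70), while the other 4 lay between 0.06 and 0.21. The pooled SE of Crabp1 is smaller than the spread of the cultures alone would give. For all 6 the KO and WT samples overlapped. With 2 samples a group, Stra6 and Aldh1a2, both below the filter, did not overlap, with Stra6 higher and Aldh1a2 lower in KO, where 19.5% and 13% of the probe sets that passed the filter were separated in those directions. The KO effect was compared between fibroblasts and lungs in the same model, and 0 of 7 member probe sets were called or had an unadjusted p under 0.05, against 0.0197% of all probe sets called. Rara had the smallest unadjusted p of the 7 in limma, 0.0765, with an effect 0.51 higher in fibroblasts (SE 0.26).

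In heart, the tissue that led to this group of genes, Rbp7 was higher in KO, whereas Aldh1a1, Aldh1a2 and Rarg had lower means. Its log2 signal was 8.62, 8.98 and 8.99 in KO 1586, 1602 and 1603 against the WT values of 6.74 to 7.56 given above. Every KO heart lay above every WT heart, an order shared by 3.91% of all probe sets that passed the filter in heart. The genes were chosen for this difference, so the separation is no support for it. The means were 8.86 ± 0.21 (SD, n = 3) in KO and 7.20 ± 0.42 (SD, n = 3) in WT, a difference of 1.66 or 3.17-fold. This difference was between 1.43 and 1.85 when any 1 of the 6 hearts was left out. With every KO heart above every WT heart, no such omission could turn its sign, so this range is no support either. Of all probe sets tested in heart 0.127% were called, and no call is read for the 4 member probe sets above the filter there, since this contrast chose the genes.

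**Figure D4:**
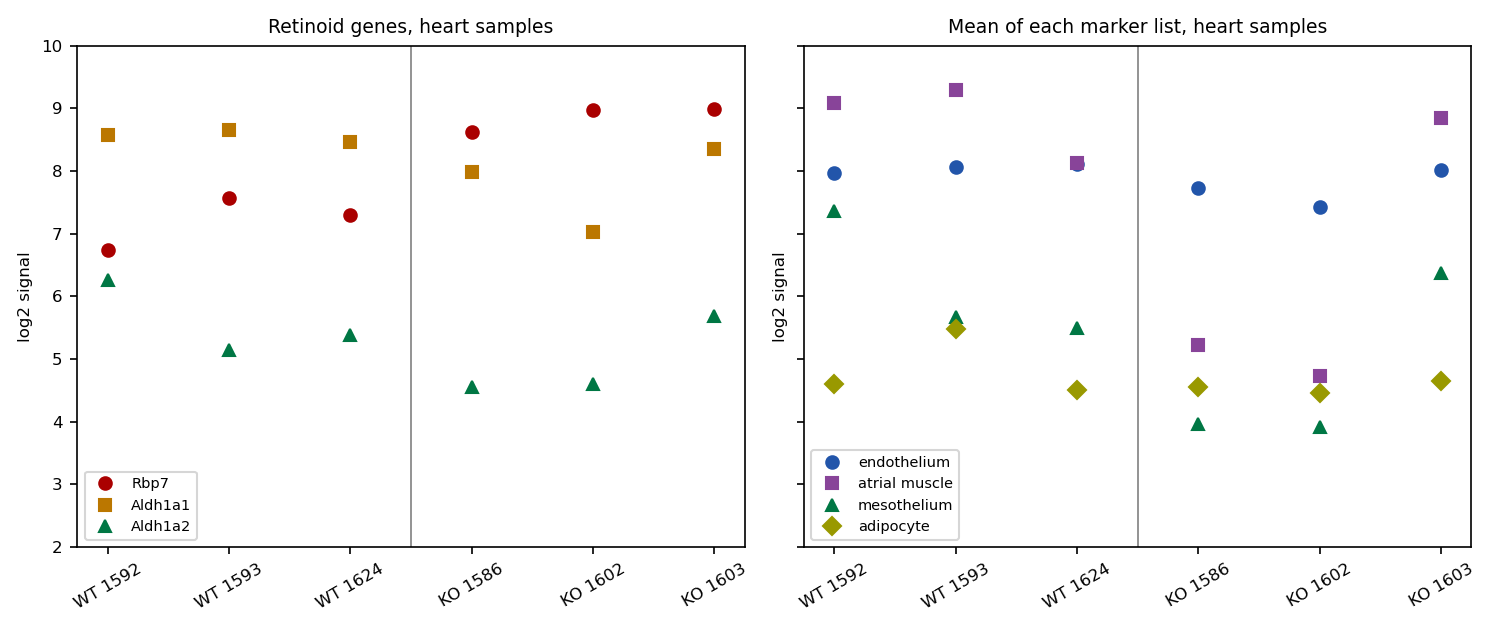
Log2 signal of Rbp7, Aldh1a1 and Aldh1a2 (left) and the mean of the endothelium, atrial muscle, mesothelium and adipocyte marker lists (right) in each heart sample, WT left and KO right of the grey line. Rbp7 is above 8.6 in all 3 KO hearts and below 7.6 in all 3 WT hearts, while the atrial and mesothelium means are lowest in KO 1586 and KO 1602.

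Markers of the cell types that could carry these genes were measured in the same hearts. The mean of the 10 endothelium markers was 7.43 to 8.01 in KO hearts and 7.96 to 8.11 in WT hearts. The adipocyte mean was 4.46 to 4.64 in KO hearts and 4.50 to 5.48 in WT hearts. The mean of the 6 atrial muscle markers measured was 5.23, 4.73 and 8.84 in KO 1586, 1602 and 1603 and 9.08, 9.29 and 8.13 in WT 1592, 1593 and 1624. The Rbp7 difference was 1.76 with the atrial mean as a term in the model. The atrial mean itself was low in KO 1586 and KO 1602, so this term cannot be fully told apart from genotype. The part of these cell types in the Rbp7 difference was not tested.

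Aldh1a1 was 7.98, 7.03 and 8.35 in KO hearts 1586, 1602 and 1603, each below the WT values of 8.46 to 8.66. Of all probe sets that passed the filter in heart, 13.7% had every KO sample below every WT sample and 3.91% every KO sample above, so the position of Aldh1a1 was a common one. Its mean difference was -0.78. It was -0.57 after quantile normalization, -0.40 without KO 1602 and -0.18 with the atrial mean as a term, which has the limit given above.

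Aldh1a2 was 4.56, 4.61 and 5.69 in KO hearts 1586, 1602 and 1603, and overlapped the WT hearts. KO 1586 and KO 1602 were the lowest of the 6 hearts in Aldh1a2 and in the mesothelium mean, which was 3.96 and 3.91 there, 6.38 in KO 1603 and 5.50 to 7.37 in WT. The mean difference of Aldh1a2 was -0.64, and 0.06 with the atrial mean as a term, under the same limit. Rarg was 4.86, 4.48 and 4.66 in the same KO hearts, with a mean difference of -0.29 and overlap with WT. The median difference over all probe sets tested in heart was -0.16, and -0.02 after quantile normalization. The other 5 probe sets were below the filter in heart, and their KO and WT samples overlapped, with mean differences from -0.58 for Rbp4 to 0.29 for Rara. The fibroblast marker mean was also lower in KO hearts, 7.17 to 7.77 against 7.84 to 8.41, and its part in these differences was not tested.

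The genes whose pattern was most like that of Rbp7, after the mean of each tissue was taken out, were Gm4274, Glb1l2, Plekhh1, Slfn8 and Arfip2. Likeness was the root mean square distance over the 16 arrays, among 11303 genes, and it was 0.394 for Gm4274 and 0.429 for Arfip2, where the Rbp7 values themselves had a root mean square deviation of 0.614. All 5 had higher means in KO than in WT hearts, which the choice by likeness fixes. The sizes were 0.67 for Gm4274, 0.83 for Glb1l2, 0.64 for Plekhh1, 0.56 for Slfn8 and 0.50 for Arfip2, all below that of Rbp7. The largest, that of Glb1l2, lay between heart means of 3.74 in KO and 2.91 in WT, both below the filter, which this gene passed through lungs.

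The rest of the retinoid pathway was covered by a list of 56 genes, of which 50 were measured and 28 to 31 passed the filter, depending on the comparison. None was called by limma between KO and WT in any tissue. At an unadjusted p under 0.05 there were 0 of 29 in lungs, 2 of 28 in fibroblasts and 2 of 29 in heart. The share of all probe sets at that threshold is not given here, so these counts are not read as a result about the pathway. The 2 in fibroblasts were Nr2f1 at -0.85 (SE 0.35) and Nrip1 at -0.41 (SE 0.18), and the 2 in heart were Nr2f2 at -1.20 (SE 0.29) and Fabp5 at -0.42 (SE 0.19), named here after their values were seen.

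Nr2f2 encodes a nuclear receptor of atrial muscle and veins that can bind the same DNA repeats as retinoic acid receptors. It was 6.62, 5.66 and 7.15 in KO hearts 1586, 1602 and 1603 and 7.49, 8.08 and 7.45 in WT hearts 1592, 1593 and 1624. All KO hearts lay below all WT hearts, an order shared by 13.7% of all probe sets that passed the filter in heart. The limma adjusted p of Nr2f2 was 0.101. In heart, 25 of the 29 pathway genes had a negative difference, with a median of -0.16, the same as the median over all probe sets tested.

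Between the WT tissues 19 of 30 pathway genes were called for lungs against heart, 11 higher and 8 lower in lungs. For lungs against fibroblasts 20 of 31 were called, 12 higher and 8 lower, and for heart against fibroblasts 23 of 31, 14 higher and 9 lower. These shares stand beside the 60.2%, 60.1% and 63.8% of all probe sets called in the same comparisons, whose shares by direction are given with the members above.

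Of the 8 listed genes of uptake, storage and release, 4 of the 6 tested were called higher in WT lungs than in WT fibroblasts, and none lower. Of the 5 tested, 3 were called higher in WT heart than in WT fibroblasts, and none lower. Between lungs and heart 2 were higher and 2 lower. Of all probe sets tested, 28.4% were called higher and 31.7% lower in lungs than in fibroblasts. The shares were 27.7% and 36.2% for heart against fibroblasts, and 34.8% and 25.4% for lungs against heart. So few genes do not set this role apart. Lrat, the enzyme that stores retinol as an ester, was 7.73 ± 0.31 (SD, n = 3) in WT lungs, 2.99 ± 0.09 (SD, n = 3) in WT heart and 3.08 ± 0.15 (SD, n = 2) in WT fibroblasts. It was called between lungs and both others, by 4.74 (SE 0.26, limma adjusted p = 3.2e-09) and 4.65 (SE 0.30, limma adjusted p = 1.58e-08). Cd36, a fatty acid and carotenoid transporter, was 8.23 higher in lungs and 8.68 higher in heart than in fibroblasts, where its signal of 3.43 was below the filter. Lpl, the lipase that frees fatty acids and retinyl esters from lipoproteins, was 13.33 in WT heart, 2.89 higher than in lungs and 4.46 higher than in fibroblasts, whose WT samples were 11.03 and 6.71.

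Among the enzymes that act between retinol and retinal, Rdh10, which makes retinal, was 8.57 in WT lungs and 6.13 in WT heart, a difference of 2.43 (SE 0.32, limma adjusted p = 1.77e-05). Rdh11, which reduces retinal, was 3.45 lower in WT heart than in WT fibroblasts (SE 0.38). Adh1, an alcohol dehydrogenase, was 4.53 higher in WT lungs than in WT fibroblasts (SE 0.76), whose samples were far apart at 4.34 and 7.03.

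Adh7, an alcohol dehydrogenase of epithelia, was 2.83 higher in WT lungs than in WT heart (SE 0.62, limma adjusted p = 0.0013). Its values in lungs were 9.30, 6.38 and 6.49 in WT 1592, 1593 and 1624 and 8.06, 6.72 and 8.48 in KO 1586, 1602 and 1603. As with Rbp4, the 3 high samples were those with high adipocyte and atrial muscle transcripts. Lipe, the lipase that frees retinol from its ester in fat and itself 1 of the adipocyte markers, was 7.07, 8.26 and 7.49 in those samples and 5.37 to 6.01 in the other 3.

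Among receptors and targets, Rxrg, a partner receptor of muscle and brain, was 7.90 in WT heart, 3.06 in WT lungs and 2.99 in WT fibroblasts. The lungs minus heart difference was -4.85 (SE 0.19, limma adjusted p = 8.97e-11). Rarres1, a gene named for its response to a retinoid, was 8.02 in WT fibroblasts and 3.37 in WT lungs, and was lower in lungs by 4.65 (SE 0.42) and in heart by 4.56 (SE 0.42). Tgm2, a transglutaminase and known retinoic acid target, was 2.99 higher in WT lungs than in WT fibroblasts (SE 0.24).

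For each role, the listed gene with the highest mean signal, members left out, was taken to stand for it, which does not rank the genes by level. Fabp5, which can carry retinoic acid, had a median of 11.7 in lungs, 10.3 in heart and 11.3 in fibroblasts. Adh5 had medians of 9.79, 10.5 and 10.4 and the coactivator Ncoa2 of 8.26, 8.51 and 7.84 in the same order. Adh5 did not overlap between lungs, at 9.65 to 10.02, and heart, at 10.39 to 10.63. Ncoa2 did not overlap between heart, at 8.22 to 8.60, and fibroblasts, at 7.70 to 8.17. Rarres2, which encodes chemerin, ranged from 10.58 to 11.48 in lungs, from 7.44 to 9.65 in heart and from 6.30 to 10.29 in fibroblasts. Cyp26b1, which breaks down retinoic acid, ranged from 3.38 to 7.11 in the 6 lungs, from 3.57 to 5.49 in the hearts and from 6.28 to 7.13 in fibroblasts, and its KO lungs of 3.38, 7.11 and 5.23 in 1586, 1602 and 1603 overlapped the WT values of 3.53 to 5.64. Bco2 of carotenoid cleavage, with medians of 2.91 to 3.50, and Aldh1a3 of retinoic acid synthesis, with medians of 2.96 to 3.15, lay below the filter in all 3 tissues.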

How the data were processed

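RNA from lungs, heart and skin fibroblasts of KO and WT mice was measured on 16 Affymetrix arrays, with biotin-labelled cRNA from 6 ug of total RNA per array, per the labels' protocols. Each deposited value is a log2 signal of 1 probe set on 1 array, read as log2 from its range, and the submitters' processing notes name Partek 6.4. For the authors' background correction, probe summary and normalization the method was not given in the sources used here, and the values entered the tests as they stand. They come without counts, and it is the number of arrays that limits precision.

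Of 45141 entries, 104 controls were left out. The annotation gives 1 gene to 28898 probe sets, several to 551 and none to 15588. The members and the gene and marker lists were chosen with earlier results of these data known. A limma 3.58.1 model (R 4.3.3) took 6 group means over the 16 arrays (10 residual and 3.53 prior degrees of freedom), with two-sided tests adjusted over the probe sets kept by the filter of 3.79. A gene with several probe sets is represented by that with the highest mean. No 2 arrays were copies (smallest mean absolute difference 0.190). The fit was tested on simulated data.

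The genes named are all members, the pathway genes called between genotypes (none), the 5 largest called WT differences per comparison, the highest gene of each role and the 5 genes most like Rbp7. Nr2f1, Nrip1, Lipe, Crabp2 and the markers Adipoq, Cidea, Ucp1, Lep, Retn and Pck1 were named after their values were seen. Lungs and heart with the same number come from the same animal, and their deviations from the group means correlated at 0.0397 to 0.206 over the 6 mice. Alternatives were quantile normalization, no filter, the compared groups alone, the mouse as a block, leaving out each array, leaving out the 3 lungs with high adipocyte transcripts, and marker means as terms. Promoter windows were read from RefSeq with Python 3.11.15 and pandas 2.3.3.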

Additional observations from a re-analysis of the deposited data

How the results depend on the processing

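The counts of member probe sets called in lungs, in fibroblasts, between their KO effects and between the WT tissues stayed within 1.5 times of those reported under every alternative run. The mouse as a replicate block (correlation 0.0542) changed 1 call of a member, the second Rarg probe set between lungs and heart, and brought the members called there from 4 to 5. Small genotype differences, none of them called, turned sign. Without the 3 lungs with high adipocyte transcripts, which leaves KO 1602 as the 1 KO sample against 2 WT samples and assumes that it varies like the other groups, the KO minus WT difference in lungs was 0.074 for Aldh1a1, 0.75 for Aldh1a2 and 0.17 for the second Rarg probe set, and the fibroblast effect minus the lungs effect was -0.014 for Aldh1a1 and -0.11 for that probe set. With the adipocyte mean as a term Rbp4 was -0.0099 in lungs. Leaving out single arrays, which in fibroblasts leaves 1 sample in a group under the same assumption, gave ranges that crossed 0, in lungs from -0.22 to 0.058 for Aldh1a1. In fibroblasts they were -0.12 to 0.24 for Aldh1a1, -0.34 to 1.49 for Crabp1, -0.97 to 0.28 for Rbp4 and -0.27 to 0.39 for the second Rarg probe set. For the fibroblast effect minus the lungs effect they were -0.065 to 0.29 for Aldh1a1, -0.34 to 0.32 for Aldh1a2 and -0.20 to 1.63 for Crabp1. Between WT lungs and fibroblasts they were -0.37 to 0.050 for Rarg and -0.58 to 0.078 for its second probe set, and between WT heart and fibroblasts -0.79 to 0.72 for Rbp4. The cause was not tested. Over all probe sets, calls between KO and WT in heart were 28 (4 higher, 24 lower), 25 after quantile normalization (11 higher, 14 lower), 10 without a filter, 2 with the compared groups alone, 1 with the atrial term and 3 to 1054 without 1 array. In lungs they were 7, 4 without a filter or with the adipocyte term, 1 with the compared groups alone, 47 without the 3 lungs (1 KO sample left) and 0 to 62 without 1 array. In fibroblasts they were 12, 0 with the compared groups alone and 12 to 92 without 1 array. For the fibroblast effect minus the lungs effect they were 5, 1 after quantile normalization or with the compared groups alone, 3 without a filter, 20 without the 3 lungs (1 KO sample left) and 0 to 32 without 1 array. The median difference between WT lungs and heart over all probe sets was 0.18 and 0.04 after quantile normalization. Low signals such as Stra6, Rara in lungs, heart and fibroblasts and Rbp7 in lungs lie near the array background and limit what can be said of them.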

Other observations

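Crabp2, the other cellular retinoic acid-binding protein, was tested only in the comparisons that include fibroblasts, since its mean was below the filter in lungs and heart. Its log2 signal was 6.46 in KO lungs 1586 and 2.95 to 3.20 in the other 5 lungs, so that 1 sample made its KO minus WT mean difference of 1.21. In heart it was 4.25, 4.24 and 3.48 in KO 1586, 1602 and 1603 and 3.27, 3.71 and 3.17 in WT 1592, 1593 and 1624, and the groups overlapped. In fibroblasts it was 4.75 and 6.32 in WT and 5.67 and 5.64 in KO. These values were singled out after they were seen.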
